A study of Mus musculus with 6 samples.

Results

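The collagens, laminins and basement membrane proteins were described here across libraries of mouse granulosa cells, which line the ovarian follicle and nurse the oocyte. The genes were taken by name from the deposited tables: protein-coding genes of the numbered collagen chains, the laminin alpha, beta and gamma chains, the nidogens, perlecan (Hspg2), fibronectin (Fn1), the numbered fibulins and the fibrillins. The names matched 65 of 54551 listed genes. The rule used no measured value. RNA came from 3 libraries labelled Gm12840-/-, a knockout of a long non-coding RNA gene, and 3 labelled wild type, all of strain C57BL/6 on postnatal day 21. Both groups had received 5 IU of PMSG, a hormone preparation under which follicles grow, 48 h ahead of 5 IU of hCG, which stands in for luteinizing hormone, and were taken 6 h after the hCG. The labels give no method of knockout, no number of mice and no pooling, so a p-value here reflects only how the 6 samples spread, which may be technical.

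Granulosa cells have no blood vessels among them and rest on the follicular basal lamina, a sheet of type IV collagen and laminin networks linked by nidogens and perlecan, which parts them from the vascular theca around the follicle. Granulosa cells make much of this sheet themselves. Fibrillar collagens such as types I and III are known mainly from the theca and stroma outside it. At ovulation the follicle wall and its basal lamina are broken down and blood vessels grow in.

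Gm12840 was the check of the labels, and its values overlapped between the labels. It stood at 0.426, 0.611 and 1.45 FPKM (fragments per kilobase of exon, scaled for depth, a level per length) in knockout-labelled libraries 1, 2 and 3, against 1.83, 0.566 and 0.365 FPKM in those labelled wild type 1, 2 and 3. These levels rest on 5, 7 and 14 reads in the knockout-labelled libraries and on 17, 6 and 5 reads in those labelled wild type. The mean was 0.829 ± 0.546 FPKM under the knockout label and 0.919 ± 0.792 FPKM under the wild-type label (SD, n = 3 each), with an exact two-sided permutation p of 0.9, where the smallest possible is 0.1. Every direction below therefore rests on the labels, and the order of the libraries in each list of values is replicate 1, 2 and 3.

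Libraries of the same label stood apart from each other. Read numbers recovered from the deposited values ran from 16392098 to 19465847 a library. Mitochondrial genes took 1.52%, 4.19% and 0.146% of reads in the knockout-labelled libraries, against 0.227%, 0.311% and 2.08% in those labelled wild type. The libraries labelled knockout 1, knockout 2 and wild type 3 thus had over 1%, and the other 3 had under 1%. The slope of log2(FPKM + 1) on log2 exon length, which is higher where long transcripts take more of the reads, was -0.09, 0.07 and -0.25 in the knockout-labelled libraries and -0.26, -0.21 and -0.02 in those labelled wild type. The same 3 libraries had the higher slopes, and the genes described here are long: the tested ones had a median exon length of 8299 bases, against 3639 for all genes tested. The granulosa markers were detected in every library, with levels from 2.96 FPKM for Cyp19a1, the aromatase of estrogen synthesis, to 10808 FPKM for Inha, the inhibin alpha subunit. Inha made up most of their summed level, which was 6454, 4570 and 9441 FPKM in the knockout-labelled libraries and 12252, 11521 and 6359 FPKM in those labelled wild type.

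The 65 genes together made up 0.324% to 0.557% of the reads of a library. Of them, 36 passed 1 FPKM in 3 libraries or more and entered the test. The other 29 stayed at or under 1.78 FPKM, and 19 of these did not pass 0.5 FPKM in any library. The classes with no tested gene were the anchoring and short-chain collagens (4 genes), the transmembrane collagens (4 genes) and the other collagens (2 genes). Col9a1 and Col19a1, chains of fibril-associated collagens, had no read among the 104208514 of all libraries, where a count of 0 allows up to 3 reads from counting error only. The plot of levels by library shows the 36 tested genes by class.

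**Figure D1:**
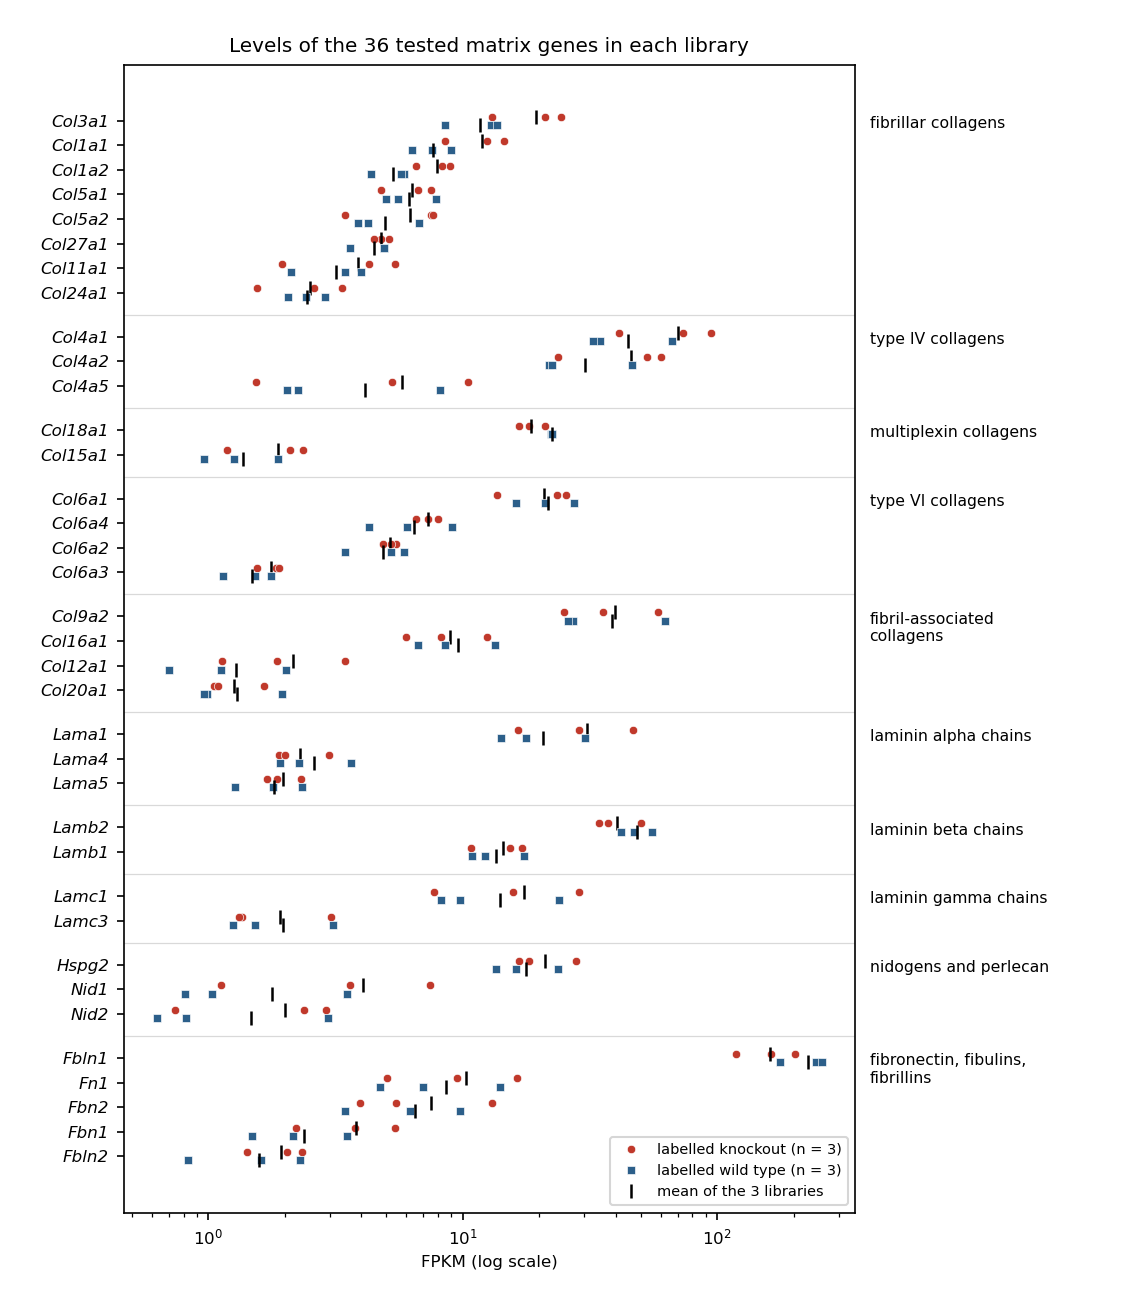
FPKM on a log scale of the 36 tested genes by class, with 1 red circle for each library labelled knockout, 1 blue square for each labelled wild type, and a black bar at the mean of each 3. Fbln1 lies highest, at 118 to 258 FPKM, and the circles and squares overlap for every gene except Col1a2 and Col18a1.

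The type IV collagens are shown first with their start regions, because their 6 genes lie head to head in 3 pairs and the pairs differed in their levels. Windows are shown for 2 of the pairs. Col4a1 and Col4a2, whose chains join in the network of nearly every basement membrane, lie on chromosome 8 of mm10, Col4a1 at 11198423 to 11312826 on the minus strand and Col4a2 at 11312805 to 11449287 on the plus strand. Their annotated transcripts share 22 exon bases at the starts, where reads of an unstranded library cannot be told apart. Col4a5 and Col4a6 lie the same way on the X chromosome, with RefSeq start sites 1343 bases apart. Col4a4 on the minus strand and Col4a3 on the plus strand form the third pair, on chromosome 1, with their annotated 5′ ends 72 bases apart. The windows below are from RefSeq on GRCm38.p6 and run 5′ to 3′ on each gene's own strand, from 250 bases before the start site to 50 bases after it. They span chr8:11312777-11313076 for Col4a1, chr8:11312555-11312854 for Col4a2, chrX:141475169-141475468 for Col4a5 and chrX:141474027-141474326 for Col4a6. Capitals mark the 78 bases that the windows of Col4a1 and Col4a2 share, read on opposite strands, and the windows of Col4a5 and Col4a6 share none.
Col4a1: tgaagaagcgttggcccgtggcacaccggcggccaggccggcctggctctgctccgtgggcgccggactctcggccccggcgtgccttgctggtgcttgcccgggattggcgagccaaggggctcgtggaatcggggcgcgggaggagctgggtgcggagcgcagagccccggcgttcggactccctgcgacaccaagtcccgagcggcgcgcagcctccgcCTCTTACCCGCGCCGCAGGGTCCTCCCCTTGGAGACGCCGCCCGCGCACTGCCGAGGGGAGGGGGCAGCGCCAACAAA
Col4a2: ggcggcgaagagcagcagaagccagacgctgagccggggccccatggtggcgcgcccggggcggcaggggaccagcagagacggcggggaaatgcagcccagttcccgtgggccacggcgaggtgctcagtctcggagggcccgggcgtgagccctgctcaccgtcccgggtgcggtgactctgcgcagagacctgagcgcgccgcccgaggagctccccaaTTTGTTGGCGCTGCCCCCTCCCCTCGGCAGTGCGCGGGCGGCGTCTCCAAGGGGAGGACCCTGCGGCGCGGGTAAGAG
Col4a5: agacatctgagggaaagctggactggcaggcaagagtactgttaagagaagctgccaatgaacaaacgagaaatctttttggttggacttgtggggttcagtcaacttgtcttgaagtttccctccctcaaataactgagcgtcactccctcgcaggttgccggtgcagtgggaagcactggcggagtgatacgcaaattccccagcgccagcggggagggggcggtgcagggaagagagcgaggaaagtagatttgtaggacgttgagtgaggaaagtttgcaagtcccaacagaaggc
Col4a6: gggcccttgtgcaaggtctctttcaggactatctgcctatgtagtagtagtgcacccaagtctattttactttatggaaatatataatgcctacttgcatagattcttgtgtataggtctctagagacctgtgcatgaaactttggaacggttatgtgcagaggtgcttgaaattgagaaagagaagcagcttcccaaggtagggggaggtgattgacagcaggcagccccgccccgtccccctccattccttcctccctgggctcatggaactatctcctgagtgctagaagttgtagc
A search of both strands for CCAAT, a box bound by NF-Y, found 1 match each in the windows of Col4a1, Col4a2 and Col4a5 and 0 in that of Col4a6. The GC box GGGCGG, searched the same way, had 1 match for Col4a1, 3 for Col4a2, 1 for Col4a5 and 1 for Col4a6. The match of Col4a1 and 1 of the 3 of Col4a2 are the same site within the capitals, counted in both windows. Neither motif can lie within the other. Of all 32851 promoter windows of this length, 37.4% hold CCAAT and 35.7% hold GGGCGG. RefSeq windows were matched for 47 of the 65 genes, some with more than 1 start site, and of these 53 windows 32.1% held CCAAT and 60.4% held GGGCGG. A match describes these letters and is not evidence of binding.

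Col4a1 and Col4a2 were the most abundant collagens of the basement membrane, and both ranged more widely within a label than their means differed between the labels. Col4a1 stood at 73.5, 95.01 and 41.2 FPKM in the knockout-labelled libraries, against 34.6, 32.4 and 66.3 FPKM in those labelled wild type. Col4a2 stood at 53.1, 60.4 and 23.7 FPKM in the knockout-labelled libraries, against 21.9, 22.4 and 46.2 FPKM in those labelled wild type. For both genes the library labelled knockout 3 lay low and that labelled wild type 3 lay high, so the groups overlapped. Col4a1 averaged 69.9 ± 27.1 FPKM under the knockout label and 44.4 ± 18.9 FPKM under the wild-type label (SD, n = 3 each). In limma, a linear model fitted across all genes tested, its log2 fold change was 0.64 with a 95% interval of -0.38 to 1.65 (Benjamini-Hochberg adjusted p = 0.993). Col4a2 averaged 45.7 ± 19.5 FPKM under the knockout label and 30.2 ± 13.9 FPKM under the wild-type label, with a log2 fold change of 0.57 (-0.53 to 1.66, adjusted p = 0.993 by limma). Fold changes are of libraries labelled knockout over wild type, on the log2(FPKM + 1) scale.

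The ratio of Col4a1 to Col4a2 moved far less than either level. It was 1.38, 1.57 and 1.74 in the knockout-labelled libraries, against 1.58, 1.45 and 1.44 in those labelled wild type. The mean ratio was 1.57 ± 0.178 under the knockout label and 1.49 ± 0.0793 under the wild-type label (SD, n = 3 each). In the X-linked pair Col4a5, a chain of the alpha3-alpha4-alpha5 and alpha5-alpha6 networks, stood at 5.29, 10.5 and 1.55 FPKM in the knockout-labelled libraries, against 2.04, 2.25 and 8.15 FPKM in those labelled wild type (log2 fold change 0.34 ± 0.65, SE). Col4a6 had 4, 12 and 0 reads in the knockout-labelled libraries, against 0, 0 and 2 reads in those labelled wild type, too few for a comparison. Col4a6 thus stayed at or under 0.0823 FPKM in every library, far below its neighbour. In the third pair Col4a4 stood at 0.474 to 1.32 FPKM and Col4a3, its partner chain and neighbour, at 0.0391 to 0.434 FPKM over the 6 libraries. Within the summed type IV level, Col4a1 took 54.6% to 61.3% and Col4a2 35.2% to 39.9%.

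**Figure D2:**
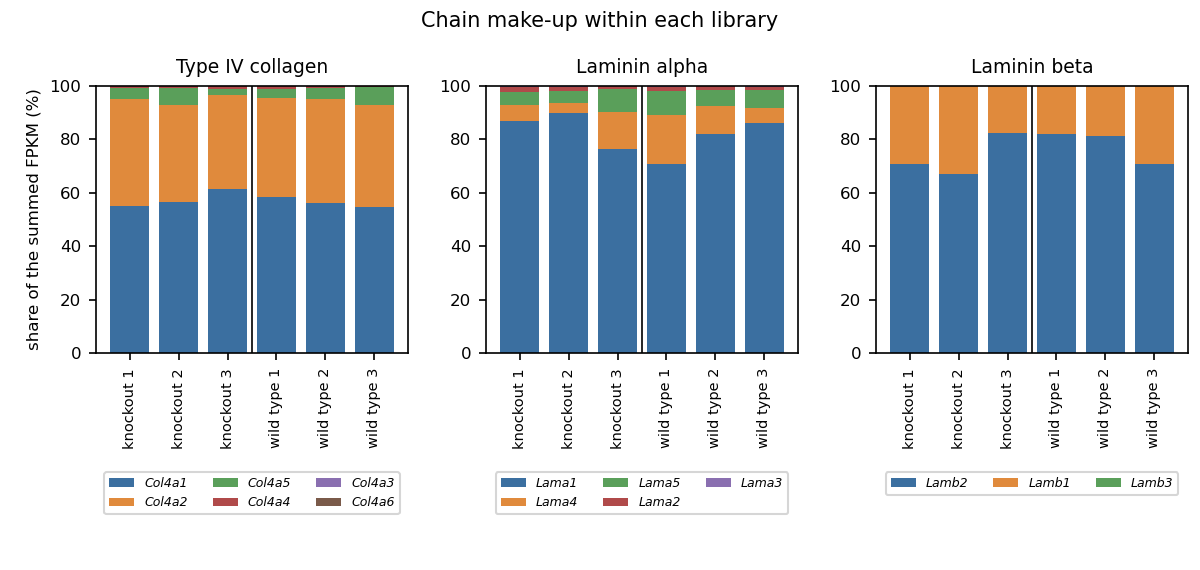
Share of the summed FPKM (%, from 0 to 100) that each chain takes among the type IV collagens and among the laminin alpha and beta chains, with 1 bar for each library, those labelled knockout left of the line. Col4a1, Lama1 and Lamb2 take the largest share of their group in all 6 libraries, Col4a1 between 54.6% and 61.3% and Lama1 between 70.8% and 89.6%.

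Laminins are trimers of 1 alpha, 1 beta and 1 gamma chain, and the chains Lama1, Lamb2, Lamb1 and Lamc1 made up most of the laminin RNA. Lama1, an alpha chain known from early embryonic basement membranes and from growing follicles, stood at 28.7, 46.8 and 16.6 FPKM in the knockout-labelled libraries, against 14.2, 17.7 and 30.2 FPKM in those labelled wild type. As with type IV collagen, knockout 3 was among the low libraries and wild type 3 among the high ones. Its log2 fold change was 0.50 (95% interval -0.56 to 1.56, adjusted p = 0.993 by limma). Lama1 took 86.8%, 89.6% and 76.3% of the summed alpha chain level in the knockout-labelled libraries, against 70.8%, 81.9% and 86.0% in those labelled wild type. The remaining alpha chains were low: Lama4, the chain of vessel walls, ran from 1.91 to 3.64 FPKM and Lama5, the widespread adult chain, from 1.28 to 2.35 FPKM. Lama2, the muscle chain, stayed at or under 0.780 FPKM, and Lama3, the chain of epithelial anchoring sites, at or under 0.356 FPKM, and neither was tested.

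The beta chains went apart from each other between libraries. Lamb2, a beta chain of synapses and kidney filters as well as of the follicle, stood at 37.1, 34.4 and 50.1 FPKM in the knockout-labelled libraries, against 55.6, 47.1 and 42.0 FPKM in those labelled wild type. Lamb1, the beta chain of most laminins, stood at 15.4, 17.1 and 10.8 FPKM in the knockout-labelled libraries, against 12.2, 10.9 and 17.3 FPKM in those labelled wild type. Where Lamb2 was low Lamb1 was high: the ratio of Lamb2 to Lamb1 was 2.41, 2.01 and 4.65 in the knockout-labelled libraries, against 4.57, 4.33 and 2.42 in those labelled wild type. The libraries with the low ratios were those with the higher length slopes. Lamb2 has 6082 exon bases and Lamb1 9917, and the part of exon length was not tested. The log2 fold change was -0.26 ± 0.26 for Lamb2 and 0.09 ± 0.27 for Lamb1 (SE, adjusted p = 0.993 for both by limma). Lamb3, the partner of Lama3, had 1 to 4 reads in a library.

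Among the gamma chains, Lamc1, found in most laminins, stood at 15.8, 28.5 and 7.70 FPKM in the knockout-labelled libraries, against 8.25, 9.74 and 23.9 FPKM in those labelled wild type. Its spread within each label exceeded the difference between them (log2 fold change 0.27 ± 0.55, SE, adjusted p = 0.993 by limma). Lamc3 stood at 1.36, 1.32 and 3.04 FPKM in the knockout-labelled libraries, against 3.10, 1.52 and 1.26 FPKM in those labelled wild type. It was thus high in knockout 3 and wild type 1, the libraries in which Lamc1 was lowest.

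Nidogens tie the laminin to the type IV collagen network, and both varied widely between libraries of the same label. Nid1 stood at 3.60, 7.42 and 1.12 FPKM in the knockout-labelled libraries, against 1.04, 0.810 and 3.50 FPKM in those labelled wild type. Its log2 fold change of 0.77 was the largest of the 36 genes, with a 95% interval of -0.60 to 2.14 (adjusted p = 0.993 by limma). Nid2 stood at 2.38, 2.91 and 0.741 FPKM in the knockout-labelled libraries, against 0.820, 0.629 and 2.96 FPKM in those labelled wild type (log2 fold change 0.32 ± 0.45, SE). Of the exon length of Nid2, 8.45% overlaps Rtraf on the opposite strand, a gene at 29.1 to 88.3 FPKM, so the level of Nid2 is uncertain. Hspg2, or perlecan, a large heparan sulfate proteoglycan, stood at 18.3, 28.0 and 16.7 FPKM in the knockout-labelled libraries, against 16.2, 13.5 and 23.6 FPKM in those labelled wild type. Its interval of -0.50 to 0.96 around a log2 fold change of 0.23 leaves room for differences in either direction (adjusted p = 0.993 by limma).

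**Figure D3:**
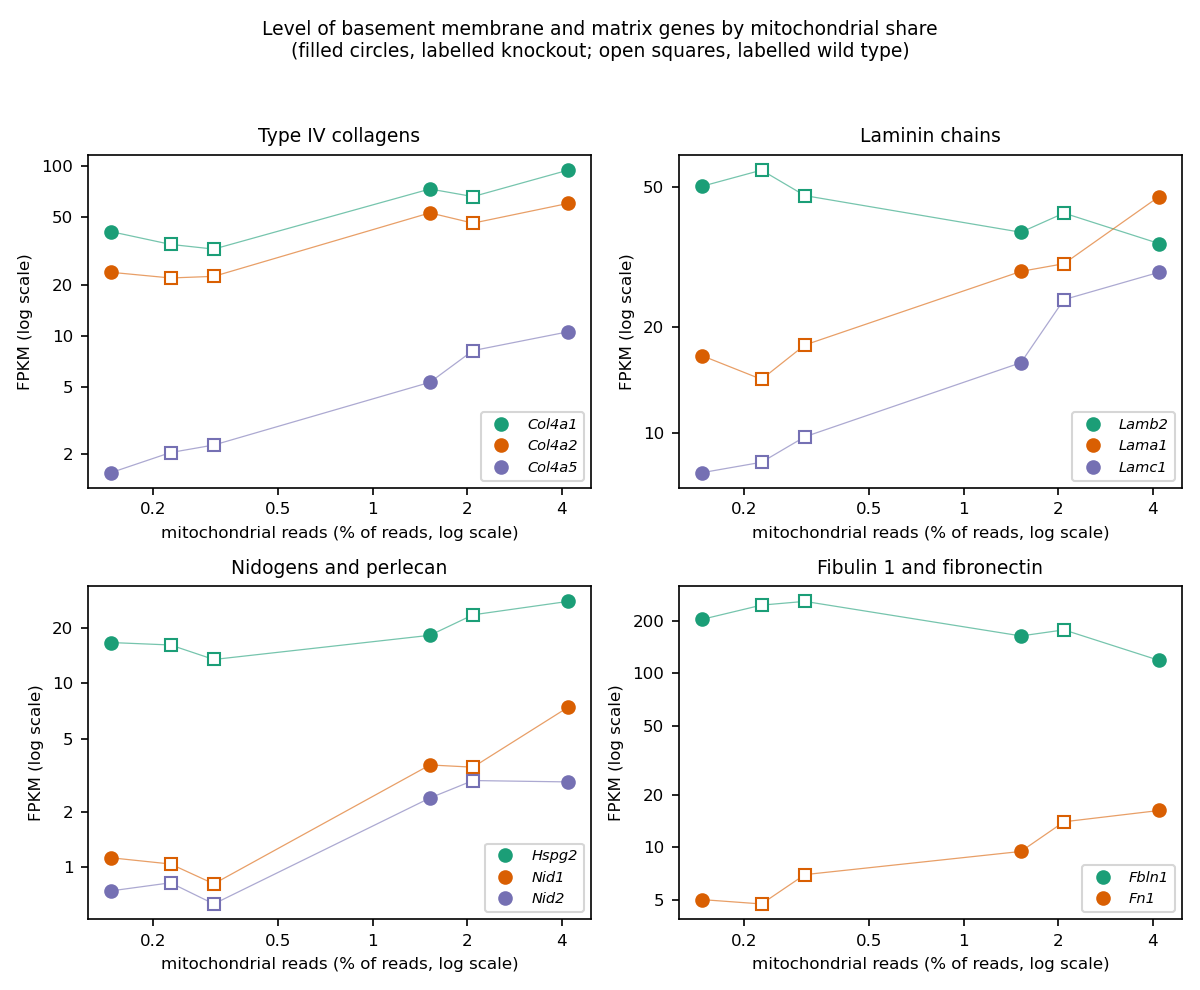
FPKM (log scale) of type IV collagens, laminin chains, nidogens with perlecan, and fibulin 1 with fibronectin against the share of mitochondrial reads in each library (%, log scale), with filled circles for libraries labelled knockout, open squares for those labelled wild type, and lines that only join the points of a gene. Col4a1, Col4a2, Col4a5, Lama1, Lamc1, Hspg2, Nid1, Nid2 and Fn1 have their 3 highest levels in the 3 libraries with over 1% mitochondrial reads, and Lamb2 and Fbln1 their 3 lowest.

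The multiplexins, basement membrane collagens that carry glycosaminoglycan chains, held the only one of the 36 tested genes whose values lay wholly lower in the knockout-labelled libraries. Col18a1, whose end is cut off as endostatin, stood at 21.1, 16.6 and 18.2 FPKM in the knockout-labelled libraries, against 22.2, 22.5 and 22.4 FPKM in those labelled wild type. The SD was 2.31 FPKM among the knockout-labelled libraries and 0.124 FPKM among those labelled wild type (n = 3 each). The log2 fold change was -0.26 (95% interval -0.74 to 0.22, adjusted p = 0.993 by limma), so the test did not call it. Non-overlap in this direction held for 2.08% of all genes tested. Col15a1 stood at 2.10, 2.35 and 1.19 FPKM in the knockout-labelled libraries, against 1.26, 0.960 and 1.88 FPKM in those labelled wild type (log2 fold change 0.28 ± 0.26, SE).

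Fbln1 was the most abundant of the 65 genes in every library. Fibulin 1 binds fibronectin, laminin and nidogen, and also versican. Fbln1, on chromosome 15 of mm10 at 85205949 to 85286535 on the plus strand, stood at 163, 118 and 203 FPKM in the knockout-labelled libraries, against 245, 258 and 177 FPKM in those labelled wild type. It lay lowest in knockout 1 and knockout 2, and knockout 3 lay above wild type 3. It averaged 162 ± 42.5 FPKM under the knockout label and 227 ± 43.5 FPKM under the wild-type label (SD, n = 3 each), a log2 fold change of -0.50 with a 95% interval of -1.32 to 0.31 (adjusted p = 0.993 by limma), the lowest of the 36 genes. Fbln1 took 25.7%, 17.8% and 35.6% of the summed level of the 65 genes in the knockout-labelled libraries, against 38.9%, 45.7% and 27.7% in those labelled wild type.

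Fibronectin ran the other way from Fbln1 across the libraries, and the fibrillins averaged lower than both under each label. Fn1, a glycoprotein that cells bind through integrins, stood at 9.49, 16.3 and 5.03 FPKM in the knockout-labelled libraries, against 4.74, 6.99 and 14.0 FPKM in those labelled wild type (log2 fold change 0.22 ± 0.49, SE, adjusted p = 0.993 by limma). The ratio of Fbln1 to Fn1 was 17.2, 7.25 and 40.4 in the knockout-labelled libraries, against 51.7, 36.9 and 12.6 in those labelled wild type. The 3 libraries with over 1% mitochondrial reads thus had the 3 lowest ratios, and they also had the higher length slopes. Fbln1 has 4368 exon bases and Fn1 11685, and the part of exon length in this ratio was not tested. Fbn1, the main chain of adult microfibrils, stood at 3.77, 5.42 and 2.22 FPKM in the knockout-labelled libraries, against 2.15, 1.49 and 3.52 FPKM in those labelled wild type (log2 fold change 0.49 ± 0.34, SE). Fbn2, a fibrillin prominent in development, stood at 5.45, 13.1 and 3.94 FPKM in the knockout-labelled libraries, against 6.23, 3.44 and 9.77 FPKM in those labelled wild type (0.13 ± 0.48). Fbln2 stayed between 0.836 and 2.34 FPKM, and Fbln5 and Fbln7 were under the filter.

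The fibrillar collagens held the genes nearest to the threshold. Col1a2, the second chain of type I collagen, stood at 8.91, 8.29 and 6.57 FPKM in the knockout-labelled libraries, against 5.88, 4.36 and 5.70 FPKM in those labelled wild type. Every library labelled knockout lay above every one labelled wild type, a pattern in this direction that 1.45% of all genes tested showed. The log2 fold change was 0.50 (95% interval -0.01 to 1.01) with an unadjusted p of 0.0529 and an adjusted p of 0.993 by limma. Scaled to library totals in place of the authors' totals, neither Col1a2 nor Col18a1 kept groups apart, and Fbln1 alone of the 36 genes did.

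Col3a1, the type III collagen of soft tissues, was the most abundant of this class, at 24.4, 21.0 and 13.1 FPKM in the knockout-labelled libraries, against 12.9, 8.52 and 13.7 FPKM in those labelled wild type. Col1a1, the main chain of type I collagen, stood at 14.6, 12.5 and 8.50 FPKM in the knockout-labelled libraries, against 7.54, 6.32 and 9.01 FPKM in those labelled wild type. In both, knockout 3 lay below wild type 3 and the groups overlapped. The log2 fold change was 0.67 for Col3a1 (95% interval -0.07 to 1.41) and 0.56 for Col1a1 (-0.06 to 1.18), each with an adjusted p of 0.993 by limma. The ratio of Col1a1 to Col1a2 ran from 1.28 to 1.64 over the libraries and that of Col3a1 to Col1a1 from 1.35 to 1.72. Col5a1, which sets fibril width, stood at 6.70, 7.53 and 4.76 FPKM in the knockout-labelled libraries, against 5.01, 5.59 and 7.87 FPKM in those labelled wild type (0.04 ± 0.25). Col5a2, Col11a1, Col24a1 and Col27a1 stayed between 1.55 and 7.66 FPKM, with log2 fold changes of at most 0.24 in size.

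Type VI collagen forms beaded filaments around cells. Col6a1 stood at 25.5, 23.4 and 13.7 FPKM in the knockout-labelled libraries, against 21.1, 16.2 and 27.4 FPKM in those labelled wild type. Its partner chains were lower per length, Col6a2 at 3.45 to 5.89 FPKM and Col6a3 at 1.15 to 1.89 FPKM. Col6a4 stood at 7.31, 6.54 and 7.99 FPKM in the knockout-labelled libraries, against 9.08, 4.27 and 6.02 FPKM in those labelled wild type. The 4 log2 fold changes lay between -0.06 and 0.20, each with an adjusted p of 0.993 by limma.

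Among the fibril-associated collagens, Col9a2 was abundant while Col9a1, its partner in the trimer, had no read. Col9a2 encodes a chain of type IX collagen, a cartilage collagen made of 3 different chains. It stood at 35.5, 24.9 and 58.8 FPKM in the knockout-labelled libraries, against 62.4, 27.1 and 25.9 FPKM in those labelled wild type. Each label thus held 1 library well above its other 2 and the groups overlapped (log2 fold change 0.08, 95% interval -1.01 to 1.17). Col9a3, the third chain, reached 0.341 to 1.78 FPKM and was not tested. Col16a1 was likewise high in knockout 3 and wild type 1, at 8.22, 6.00 and 12.5 FPKM in the knockout-labelled libraries, against 13.4, 8.55 and 6.69 FPKM in those labelled wild type. Col12a1, a collagen on the surface of type I fibrils, stood at 1.86, 3.46 and 1.13 FPKM in the knockout-labelled libraries, against 0.703, 1.12 and 2.02 FPKM in those labelled wild type (0.44 ± 0.35, SE). Col20a1 stayed between 0.962 and 1.95 FPKM.

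**Figure D4:**
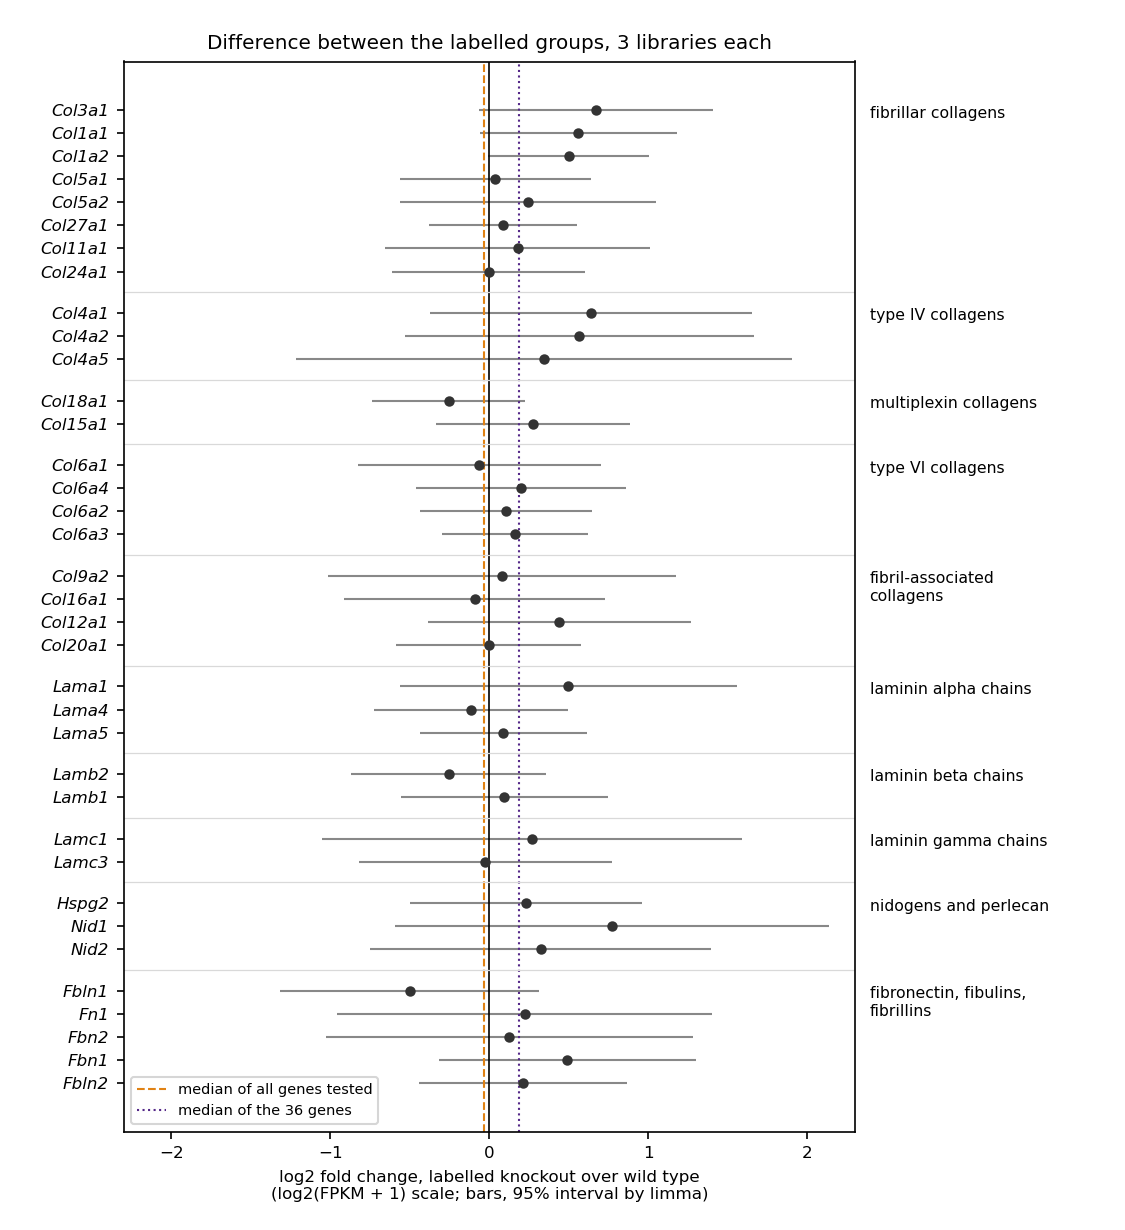
Log2 fold change of libraries labelled knockout over wild type for the 36 tested genes, on the log2(FPKM + 1) scale, with bars for the 95% interval by limma, a dashed line at the median of all genes tested (-0.04) and a dotted line at that of the 36 genes (0.19). Every bar crosses 0, that of Col1a2 barely, at -0.01.

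Over the whole table, limma with Benjamini-Hochberg adjustment called 0% of the 12495 genes tested, the smallest adjusted p being 0.0893, and 0 of the 36 genes. Before adjustment 91 genes, or 0.728%, and 0 of the 36 had a p under 0.05. Groups did not overlap for 3.53% of all genes tested and for 2 of the 36, Col1a2 and Col18a1. The log2 fold change was positive for 27 and negative for 9 of the 36 genes, with a median of 0.19 and a range of -0.50 to 0.77. Over all genes tested the median was -0.04 and 45.0% were positive. Without wild type 2 the median of the 36 was -0.01, with 17 positive and 19 negative. With the length slope of each library as a further term beside the label, the median was 0.07, with 24 positive and 12 negative. Without knockout 3 the groups did not overlap for 13 of the 36, against 21.7% of all genes tested, without wild type 1 for 5, against 8.05%, and without wild type 3 for 11, against 18.2%. By class, 7 of 8 tested fibrillar collagens were positive, 3 of 3 type IV collagens, 3 of 3 nidogens and perlecan, 4 of 5 of the fibronectin, fibulin and fibrillin class, 3 of 4 type VI collagens and 4 of 7 laminin chains. The multiplexins were split 1 to 1 and the fibril-associated collagens 2 to 2. The 95% intervals had a median half-width of 0.751 on the log2 scale, and 17 of 36 reached a 2-fold increase, a log2 of 1. Those of Fbln1, Col4a5, Lamc1, Fbn2 and Col9a2 reached a 2-fold decrease. In bulk RNA, fewer cells of a type and less RNA per cell cannot be told apart.

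More of these genes were parted by the split of the libraries at 1% mitochondrial reads than by the labels, as was so for all genes tested. The 3 libraries above the split also had the higher length slopes and the higher authors' totals for their reads. Mitochondrial share, length slope and scaling thus cannot be told apart here. The 36 genes are also longer than all genes tested, with median exon lengths of 8299 and 3639 bases. For 21 of the 36 genes, or 58.3%, the 3 highest values lay in the 3 libraries with over 1% mitochondrial reads, against 31.4% of all genes tested. The 3 lowest values lay there for 5 of the 36, or 13.9%, namely Col16a1, Lama4, Lamb2, Lamc3 and Fbln1, against 34.9% of all genes tested. Type IV collagens deviated from their mean by a median of 0.47, 0.84 and -0.53 in the knockout-labelled libraries, against -0.64, -0.64 and 0.40 in those labelled wild type, on the log2(FPKM + 1) scale. The nidogens with perlecan deviated likewise, by 0.41, 0.62 and -0.55 in the knockout-labelled libraries and by -0.48, -0.64 and 0.43 in those labelled wild type. Fibril-associated collagens deviated by -0.07, -0.30 and 0.34 in the knockout-labelled libraries and by 0.47, -0.23 and -0.28 in those labelled wild type.

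**Figure D5:**
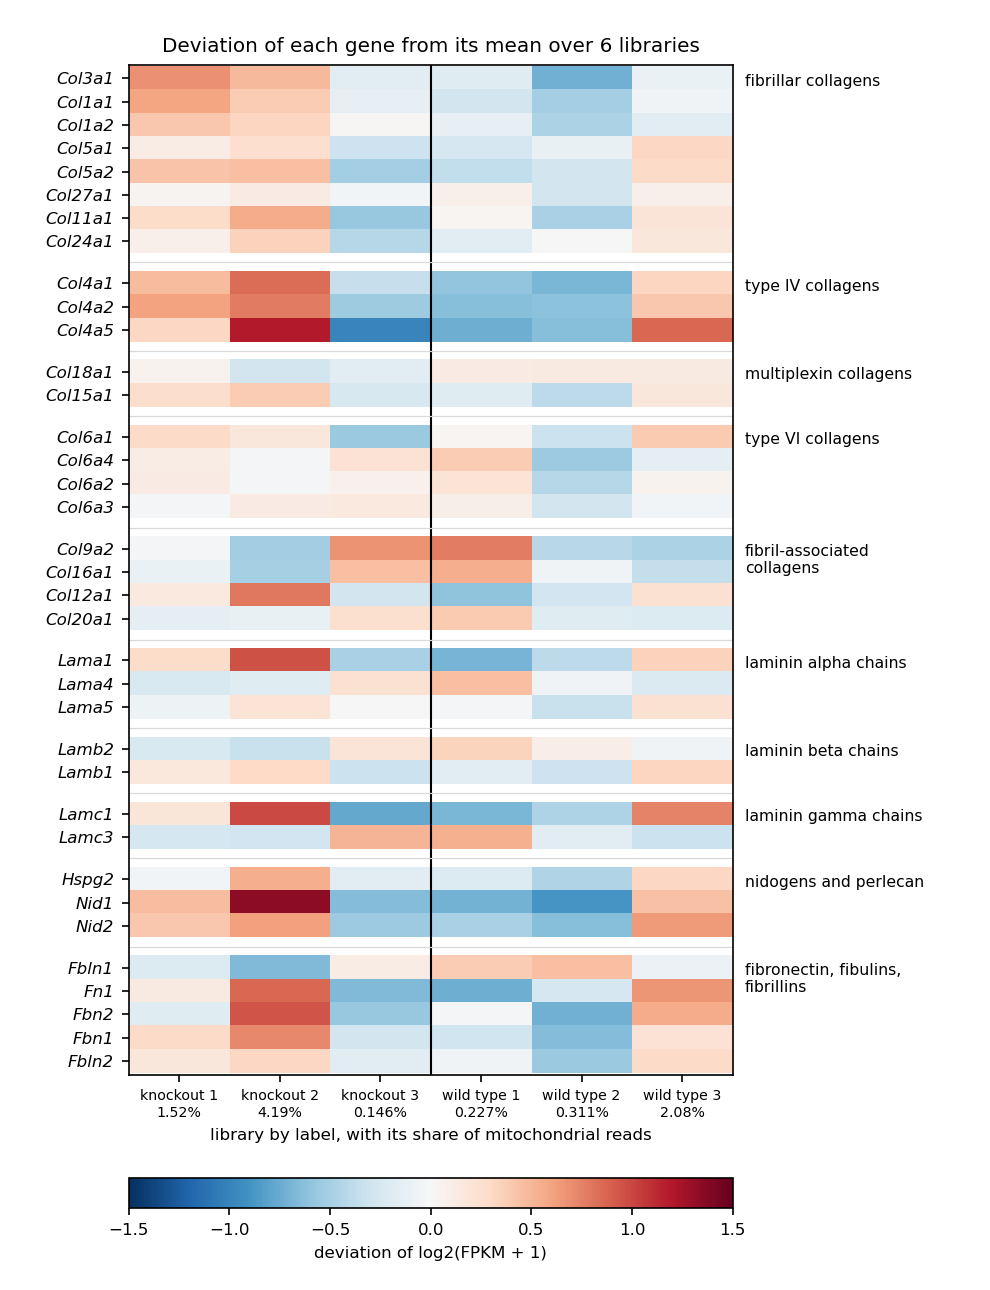
Deviation of log2(FPKM + 1) of each tested gene from its mean over the 6 libraries, red above and blue below, with the libraries labelled knockout left of the line and the share of mitochondrial reads under each library. The columns of knockout 1, knockout 2 and wild type 3 are mostly red, and Col9a2, Col16a1, Lamc3 and Fbln1 run against them.

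Without replicate 3 of both labels, the 2 libraries labelled knockout that remain had over 1% mitochondrial reads and both labelled wild type had under 1%, so that label and share cannot be told apart. There limma called 3451 genes, or 27.6%, with 11.3% higher and 16.3% lower in the knockout-labelled libraries. It called 13 of the 36 genes (36.1%), all higher: Col3a1, Col1a1, Col5a2, Col4a1, Col4a2, Col4a5, Col12a1, Lama1, Lamc1, Nid1, Nid2, Fn1 and Fbn1. Their log2 fold changes ran from 0.76 for Col5a2 to 1.70 for Nid1.

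With the split at 1% as a term beside the label, a fit added after the data were seen, 0 of the 36 genes were called and the median log2 fold change was 0.05. The 3 libraries above the split and the 3 below it were also set against each other by label. Of the 36 genes, 18 were higher under the knockout label on both sides, against 23.2% of all genes tested, and 10 were lower on both sides, against 26.6% of all genes tested. For Col1a2 and Col18a1 any split gives the same sign on both sides, since their groups did not overlap. Col1a2 was higher under the knockout label on both sides, by 0.52 above and 0.32 below (log2), and so were Col3a1 (0.69 and 0.29), Col1a1 (0.53 and 0.27) and Col4a1 (0.33 and 0.29). Fbln1 was lower on both sides, by -0.35 and -0.31, as was Col18a1, by -0.24 and -0.29. Lamc1 (-0.16 and -0.20), Fn1 (-0.16 and -0.17) and Col4a5 (-0.10 and -0.30) were lower on both sides, although their log2 fold change over all 6 libraries was positive. In the fit with this term Col1a2 had a log2 fold change of 0.42 ± 0.18 and Col3a1 of 0.49 ± 0.21 (SE), with unadjusted p of 0.0455 for Col1a2 and 0.0497 for Col3a1 and an adjusted p of 0.9998 for both by limma. These values rest on 1 or 2 libraries a label on each side.

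The enzymes and partners of this matrix were taken from 4 lists, with 0 genes called in each. Of 25 tested genes of collagen modification and cross-linking, 14 were positive and 11 negative, with a median of 0.07. Those with the smallest p were the cross-linking oxidases Loxl2, at 5.52 ± 1.09 FPKM under the knockout label and 3.74 ± 0.918 FPKM under the wild-type label, and Lox, at 16.0 ± 7.49 FPKM under the knockout label and 9.75 ± 5.36 FPKM under the wild-type label (SD, n = 3 each). The most abundant were P4hb, a subunit of prolyl 4-hydroxylase, at 544 ± 106 FPKM under the knockout label and 614 ± 114 FPKM under the wild-type label, and Serpinh1, the collagen chaperone, at 484 ± 39.6 FPKM under the knockout label and 485 ± 14.4 FPKM under the wild-type label. On the deposited FPKM, the highest library of Serpinh1 was 1.15 times the lowest, against a median of 2.27 times for the 36 matrix genes. Both figures hold for the authors' scaling, and their totals ran from 0.894 to 1.12 times the recovered reads.

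Of 18 tested matrix receptors, 13 were positive, with a median of 0.11. The laminin receptor subunit Itga6 stood at 3.78 ± 1.51 FPKM under the knockout label and 2.77 ± 1.07 FPKM under the wild-type label (SD, n = 3 each). Itgb1, the beta subunit that many matrix integrins share, stood at 146 ± 44.0 FPKM under the knockout label and 132 ± 19.95 FPKM under the wild-type label. Sdc1, a heparan sulfate proteoglycan of the cell surface, stood at 580, 477 and 611 FPKM in the knockout-labelled libraries, against 626, 721 and 636 FPKM in those labelled wild type, with no overlap. Non-overlap in this direction held for 2.08% of all genes tested. The log2 fold change of Sdc1 was -0.25 ± 0.35 (SE, adjusted p = 0.993 by limma). Scaled to library totals, its groups overlapped. The hyaluronan receptor Cd44 stood at 2.99 ± 0.633 FPKM under the knockout label and 2.46 ± 0.161 FPKM under the wild-type label.

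Of 20 tested other basement membrane and fibre proteins, 15 were positive, with a median of 0.15. Mfap4, a microfibril protein, stood at 7.34, 6.72 and 5.54 FPKM in the knockout-labelled libraries, against 4.94, 3.23 and 3.34 FPKM in those labelled wild type, with no overlap. Its log2 fold change was 0.65 ± 0.22 (SE), with an unadjusted p of 0.0238 and an adjusted p of 0.993 by limma. Non-overlap in this direction held for 1.45% of all genes tested. Vcan, the versican of the expanding cumulus matrix, stood at 290, 749 and 154 FPKM in the knockout-labelled libraries, against 175, 194 and 368 FPKM in those labelled wild type. It was highest in the same 3 libraries as type IV collagen. Ltbp4, which binds latent TGF-beta to fibres, stood at 4.34 ± 1.42 FPKM under the knockout label and 2.54 ± 0.898 FPKM under the wild-type label. Sparc, a collagen-binding protein, stood at 179 ± 23.9 FPKM under the knockout label and 141 ± 15.8 FPKM under the wild-type label.

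Of 17 tested matrix-degrading proteases and their inhibitors, 10 were positive, with a median of 0.11. Mmp11, or stromelysin-3, stood at 53.1, 46.4 and 49.99 FPKM in the knockout-labelled libraries, against 33.3, 27.5 and 41.9 FPKM in those labelled wild type, with no overlap (log2 fold change 0.55 ± 0.25, SE, adjusted p = 0.993 by limma). Non-overlap in this direction held for 1.45% of all genes tested. Mmp19, another matrix metalloproteinase, stood at 8.51 ± 4.46 FPKM under the knockout label and 4.05 ± 2.96 FPKM under the wild-type label. The inhibitor Timp1 stood at 580, 299 and 1404 FPKM in the knockout-labelled libraries, against 1259, 1077 and 397 FPKM in those labelled wild type. Timp1 was thus lowest where type IV collagen was highest, which were also the libraries with the higher length slopes. It has 888 exon bases, against 7464 for Col4a1 and 6619 for Col4a2, and the part of exon length was not tested. The lysosomal protease Ctsl stood at 757 ± 144 FPKM under the knockout label and 806 ± 124 FPKM under the wild-type label. Plau, the urokinase plasminogen activator, and Plod1, a lysyl hydroxylase, had lower values in every library labelled knockout, and were named after their values were seen. Plau averaged 200.4 ± 9.56 FPKM under the knockout label and 292 ± 81.3 FPKM under the wild-type label, and Plod1 averaged 18.6 ± 0.892 FPKM under the knockout label and 21.5 ± 2.54 FPKM under the wild-type label (SD, n = 3 each). Their log2 fold changes were -0.51 ± 0.33 and -0.19 ± 0.20 (SE, adjusted p = 0.993 for both by limma). Non-overlap in that direction held for 2.08% of all genes tested. Scaled to library totals, the groups of Mmp11, Plau and Plod1 overlapped.

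Markers of other ovarian cells are given because types I and III collagen are known from stroma and theca. The list of stroma, pericyte and smooth muscle had 8 of 12 genes tested, all 8 with a positive log2 fold change (median 0.32), and none of the 12 at 0 in any library. Its summed level was 72.5, 52.7 and 92.3 FPKM in the knockout-labelled libraries, against 99.0, 46.9 and 39.3 FPKM in those labelled wild type, most of it Acta2. Dcn, a stromal proteoglycan named after its values were seen, stood at 3.12, 3.14 and 1.12 FPKM in the knockout-labelled libraries, against 1.25, 0.811 and 1.60 FPKM in those labelled wild type, with the same libraries high as for Col3a1. Of the 8 tested markers, Lum, Pdgfra and Tcf21 also had their 3 highest values in those libraries. The other tested markers did not: Acta2 was highest in wild type 1, and Cnn1, Des and Pdgfrb in knockout 3. Pdgfrb lay higher in every library labelled knockout, at 2.31, 2.51 and 2.69 FPKM, against 2.14, 1.34 and 2.08 FPKM under the wild-type label. Its log2 fold change was 0.31 ± 0.20 (SE, adjusted p = 0.993 by limma). Non-overlap in this direction held for 1.45% of all genes tested. Myh11 and Cspg4, too low to be tested, also did not overlap in this direction. The theca list had 4 of 6 genes tested, all positive, with a summed level of 45.2, 44.3 and 43.5 FPKM in the knockout-labelled libraries, against 61.8, 30.8 and 26.8 FPKM in those labelled wild type. Cyp17a1, the androgen-making enzyme of theca, led it. The part of stroma and theca in the levels of the fibrillar collagens was not tested.

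Endothelial markers, with 6 of 8 tested and 4 positive, summed to 18.3, 17.4 and 19.8 FPKM in the knockout-labelled libraries, against 20.4, 11.8 and 17.1 FPKM in those labelled wild type. Among them the vessel cadherin Cdh5 stood at 6.30, 9.06 and 1.67 FPKM in the knockout-labelled libraries, against 1.51, 1.70 and 7.22 FPKM in those labelled wild type, high in the same 3 libraries as Col4a5. Of the 6 tested markers Cdh5, Pecam1 and Kdr had their 3 highest values in those libraries, Cldn5, a tight junction protein, had its 3 lowest there, and Emcn and Esam were highest in wild type 1. Surface epithelium markers, led by Krt19, had 6 of 6 tested and all negative, and summed to 48.6, 28.9 and 146 FPKM in the knockout-labelled libraries, against 141, 75.2 and 43.8 FPKM in those labelled wild type. They were high in knockout 3 and wild type 1, as Col9a2 and Col16a1 were. These 2 libraries had the lowest length slopes, -0.25 and -0.26. The exon length of the surface markers ran from 927 bases for Lgals7 to 7049 bases for Krt7. Col9a2, with 3095 bases, is the shortest of the 36 tested matrix genes, and Col16a1 has 6750 bases. The part of exon length in this pattern was not tested. Oocyte markers, led by Gdf9, had 7 of 8 tested with 1 positive, and summed to 258, 209 and 329.9 FPKM in the knockout-labelled libraries, against 379, 348 and 232 FPKM in those labelled wild type. Leukocyte markers, led by Cd68, had 2 of 7 tested and summed to between 6.05 and 9.27 FPKM. Cd3e was at 0 in 5 libraries, and the entry read under the name Itgam was at 0 in all 6. Only 1 entry was read for each marker name, so this 0 does not cover any other entry named Itgam. The granulosa list, led by Inha, had 10 of 10 tested, 3 positive and 7 negative. The part of these cells in the levels of the matrix genes was not tested.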

How the data were processed

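The deposited files hold FPKM values, 1 file for each library, for 3 libraries labelled Gm12840-/- and 3 labelled wild type, made with an unstranded TruSeq RNA kit per the labels' protocols. Per the submitters' processing notes, HISAT2 2.0.5 and the mm10 build were used. How reads were counted and scaled, and with which annotation release, is not given in the sources used here. The deposited FPKM times exon length was a whole multiple of 1 step per library for 100% of values, within 0.01 reads, so reads were recovered. The authors' library totals were 0.894 to 1.12 times the recovered reads. They were 1.12, 1.12 and 0.904 times in the knockout-labelled libraries, against 0.894, 0.939 and 1.12 times in those labelled wild type. The 3 libraries with over 1% mitochondrial reads thus had the 3 highest values, so the scaling of the deposited FPKM differed along the same split. Intervals and limits on reads cover counting error only.

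Genes above 1 FPKM in 3 or more libraries were tested with limma 3.58.1 in R 4.3.3 on log2(FPKM + 1). The prior variance had a trend, with the label as the only term, both groups sharing 1 estimate of the spread, two-sided p-values, Benjamini-Hochberg adjustment over all genes tested and a threshold of 0.05. The log2(FPKM + 1) scale understates the change of low genes. The test was run first on simulated data. Gm12840 was compared by an exact permutation test. The members, classes, lists and tests were chosen with earlier results of these data known. Named were up to 4 of the most abundant tested genes of each class, all laminin chains, type IV collagens, nidogens and perlecan, all genes with p under 0.05 or no overlap, and in each further list the 2 genes with the smallest p and the 2 most abundant. The result of 1 gene that this rule names is not reported here.

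Alternatives were another pseudocount, other filters, library totals, limma-voom, the replicate block, the length slope, and leaving libraries out. The fit with the mitochondrial split was added after the data were seen. Libraries of the same label differed beyond sampling noise (chi-square per degree of freedom 40.8 to 443), so none was taken for a copy. Of the 65 genes, all 65 were in GENCODE M21 and 63 had the same coordinates there. Of the 65, 21 share exon bases with another gene, only Fbn1 over 10% of its length, with Gm9913 at no more than 0.193 FPKM. Start regions were copied from RefSeq (GRCm38.p6). Figures were drawn with matplotlib 3.10.9.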

Additional observations from a re-analysis of the deposited data

How the results depend on the processing

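No single library left out, no other scaling, filter or pseudocount and no covariate led limma to call any of the 36 genes, and only leaving out replicate 3 of both labels did. The smallest adjusted p of a member outside that alternative was 0.466. With the replicate block 0 genes and 0 members were called and the median log2 fold change of members was 0.19. Same-numbered libraries deviated in opposite directions (correlations -0.42, -0.67 and -0.89), and 0 of 6 libraries correlated best with its own number. Each number joins 1 library above and 1 below 1% mitochondrial reads, and the labels do not say that a number marks a shared source, so whether the numbers pair the libraries was not settled.

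Members at an unadjusted p under 0.05 numbered 1 at a pseudocount of 0.1 (against 0.752% of all genes), 1 without a filter (1.61%) and 1 among protein-coding genes (0.571%), each Col1a2. They numbered 5 with the length slope as a covariate (Fbln1, Col4a1, Col3a1, Col1a1 and Col1a2, against 5.02% of all genes), 2 with the mitochondrial split (Col3a1 and Col1a2, against 2.42%), 17 without replicate 3 of both labels (against 44.6%) and 0 to 6 when 1 library was left out. The 6, without knockout 3, were Col4a1, Col4a2, Col3a1, Col1a1, Col1a2 and Nid1, against 5.25% of all genes. Members whose groups did not overlap numbered 4 of 63 without a filter (against 4.31% of all genes), 1 of 36 with library totals (2.82%), 28 without replicate 3 of both labels (against 76.2% of all genes) and between 2 and 13 with any 1 library left out. They numbered 13 without knockout 3 (21.7% of all genes), 11 without wild type 3 (18.2%) and 5 without wild type 1 (8.05%). With the length slope or the mitochondrial split 1 gene was called, Mir1291 in both, which is no member. Without replicate 3 of both labels 3451 genes and 13 members were called, and the median of members was 0.56.

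With 1 library left out, the median of members ran from -0.01 without wild type 2, where 17 were positive and 19 negative, to 0.37 without wild type 3. With library totals or limma-voom, 31 were positive and 5 negative, and the median of all genes was 0.04. In all, 15 members kept their sign in every alternative, 13 passed the threshold without replicate 3 of both labels, and 72 of 562 single values changed sign. The cause was not tested. Those with changed sign were, on the log2 scale, Col20a1 0.0078 at a pseudocount of 0.1; Col6a1 0.022, Col24a1 0.062, Lamc3 0.028 and Col20a1 0.044 with library totals; Col6a1 0.017, Col24a1 0.058, Lamc3 0.051 and Col20a1 0.10 with limma-voom. With the length slope they were Lamc1 -0.16, Lamb1 -0.062, Fn1 -0.15, Col16a1 0.13, Fbn2 -0.19, Col5a1 -0.11, Col4a5 -0.17, Col11a1 -0.025, Lama4 0.0063, Lamc3 0.17 and Col20a1 0.095. With the mitochondrial split they were Lamc1 -0.18, Lamb1 -0.090, Fn1 -0.16, Col16a1 0.13, Fbn2 -0.19, Col5a1 -0.13, Col5a2 -0.019, Col4a5 -0.20, Col11a1 -0.055, Lama4 0.025, Lamc3 0.19, Nid2 -0.054 and Col20a1 0.11. Without replicate 3 of both labels they were Col9a2 -0.46, Col6a1 0.38 and Col24a1 0.29. When 1 library was left out, the ranges that crossed 0 were Col5a1 -0.083 to 0.20, Col6a1 -0.24 to 0.20, Col6a2 -0.079 to 0.24, Col6a4 -0.026 to 0.44, Col9a2 -0.24 to 0.48, Col11a1 -0.056 to 0.51, Col16a1 -0.34 to 0.16, Col20a1 -0.12 to 0.19, Col24a1 -0.18 to 0.21, Col27a1 -0.033 to 0.15, Col4a5 -0.16 to 0.92, Lama4 -0.26 to 0.079, Lama5 -0.054 to 0.22, Lamb1 -0.035 to 0.28, Lamc1 -0.16 to 0.72, Lamc3 -0.29 to 0.23, Fn1 -0.15 to 0.61, Fbln2 -0.011 to 0.41 and Fbn2 -0.31 to 0.44.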
